A study of Homo sapiens with 6 samples.

Results

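The apolipoprotein L (APOL) family comprises 6 genes on human chromosome 22, APOL1 to APOL6, and all 6 were found by symbol among the 60611 genes of the deposited count table. RNA had been sequenced from EndoC-BH5, an established human pancreatic beta-cell line labelled wild type. One group of 3 libraries received vehicle, and the other 3 received the cytokines interferon gamma and interleukin 1 beta in combination (cytokine libraries). Both groups are of the same single line, and neither the dose nor the duration of treatment is stated in the sources used here. The labels do not say whether replicates were separate cultures, so each p-value reflects spread among these particular libraries, which may be technical.

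APOL genes encode proteins with a membrane-active domain that can insert into lipid bilayers. APOL1 is the secreted member: it circulates on high-density lipoprotein and lyses trypanosomes by opening channels in their membranes, while the other members lack its export signal and stay inside the cell. Several members are textbook interferon-stimulated genes, and APOL3 is known to dissolve the membranes of cytosolic bacteria in cells treated with interferon gamma. A stretch of APOL proteins has been likened to the BH3 domain of the BCL2 family, and overexpressed APOL6 has been described as promoting cell death.

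The genes lie in 2 groups in GRCh38. APOL6 (ENSG00000221963) is on the plus strand at 35648395 to 35668409 and APOL5 (ENSG00000128313) on the plus strand at 35717872 to 35729483. After a gap of 411 kb that holds RBFOX2 come APOL3 (ENSG00000128284, 36140330 to 36166177), APOL4 (ENSG00000100336, 36189124 to 36204840) and APOL2 (ENSG00000128335, 36226203 to 36239954), all on the minus strand. APOL1 (ENSG00000100342) lies on the plus strand at 36253010 to 36267530, 13.1 kb from APOL2 and 13.7 kb from MYH9. No other gene of GENCODE 29 overlaps any of the 6, on either strand. The unstated strand setting of the counting thus has no overlap annotated in that release to act on here. GENCODE 29 held 58352 of the 60611 gene identifiers of the count table, so the counting may have used another annotation.

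Reads shared between paralogs were looked for in the transcript sequences. Of the stretches of 75 bases in the transcripts of each APOL gene, 0 were found in another APOL gene. At 50 bases the shared part was 0.608% for APOL1, 0.383% for APOL2, 0.140% for APOL3 and 0 for the others. The longest identical run was 58 bases, between APOL1 and APOL2 and between APOL1 and APOL3. Counting genes of any kind, 148 of 3785 stretches of 50 bases (3.91%) recurred for APOL1, 60 of 3658 (1.64%) for APOL2, 33 of 4744 (0.696%) for APOL4 and 24 of 10072 (0.238%) for APOL6. At 75 bases such recurrence was found for APOL1 alone among the 6, in 15 of 3910 stretches. Read length is not stated in the sources used here, and reads with mismatches were not considered.

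Total counts per library were 5871481 to 15894082 with vehicle and 13689972 to 16175364 with cytokines, and vehicle replicate 1 was the shallowest. Levels are given in CPM, the depth-scaled count unit, after TMM scaling, which adjusts library size for composition, and as mean ± SD over n = 3 libraries. A log2 change compares cytokine with vehicle libraries and is positive where cytokine is higher, and SE is its standard error. The insulin gene INS, which defines beta cells, was at 4012 CPM with vehicle and 3641 CPM with cytokines, with overlapping libraries. Of 14 markers of other cell types, the immune, endothelial, fibroblast and pancreatic polypeptide markers PTPRC, CD3E, PECAM1, VWF, CDH5, COL1A1, COL3A1 and PPY had at most 12 counts in any library. The summed level of the 14 markers was 776 to 856 CPM with vehicle and 770 to 818 CPM with cytokines, with somatostatin (SST) at 555 and 568 CPM, which carried most of that sum. Of the 6 tested markers 1 rose, 3 fell and 2, SST and CD14, did not pass, where 28.3% of all tested genes were called higher and 28.8% lower. The monocyte and lysosome marker CD68 rose 4.12-fold to 21.4 CPM. CD14, another monocyte marker, was at 2.63 CPM with vehicle and 2.06 CPM with cytokines (log2 change -0.33, edgeR, adjusted p = 0.195). On the log2 scale the glucagon gene GCG fell by 0.79, the duct marker KRT19 fell by 0.25 and the podocyte marker NPHS1 fell by 0.31. The part of other cell types in the APOL values was not tested beyond this, and in RNA from whole cultures a larger number of expressing cells and more RNA per cell cannot be told apart.

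APOL1, APOL2, APOL3, APOL4 and APOL6 rose with the cytokine pair, by 6.98-fold for APOL2 and by far more for APOL1, which went from 1.42 ± 0.0638 to 398 ± 7.80 CPM. APOL5 stayed below the count filter in both groups. Summed over the 6 genes, the family went from 94.7 ± 6.77 to 1578 ± 23.1 CPM, a 16.7-fold difference, or from 0.00947% to 0.0108% of all counts in the vehicle libraries to 0.145% to 0.148% in the cytokine libraries. Among all 17847 genes tested, 57.1% were called in either direction, 28.3% higher and 28.8% lower (edgeR quasi-likelihood test, Benjamini-Hochberg adjusted p under 0.05). By size, 5.97% were called higher by at least 2-fold and 2.52% by at least 4-fold. Every cytokine library lay above every vehicle library for 30.3% of genes, and 61.1% had groups that did not overlap, counting either direction. APOL3 and APOL4 passed the count filter through the cytokine libraries alone, so their place among the tested genes already required a high cytokine level. APOL1, APOL2 and APOL6 passed it in both groups.

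**Figure D1:**
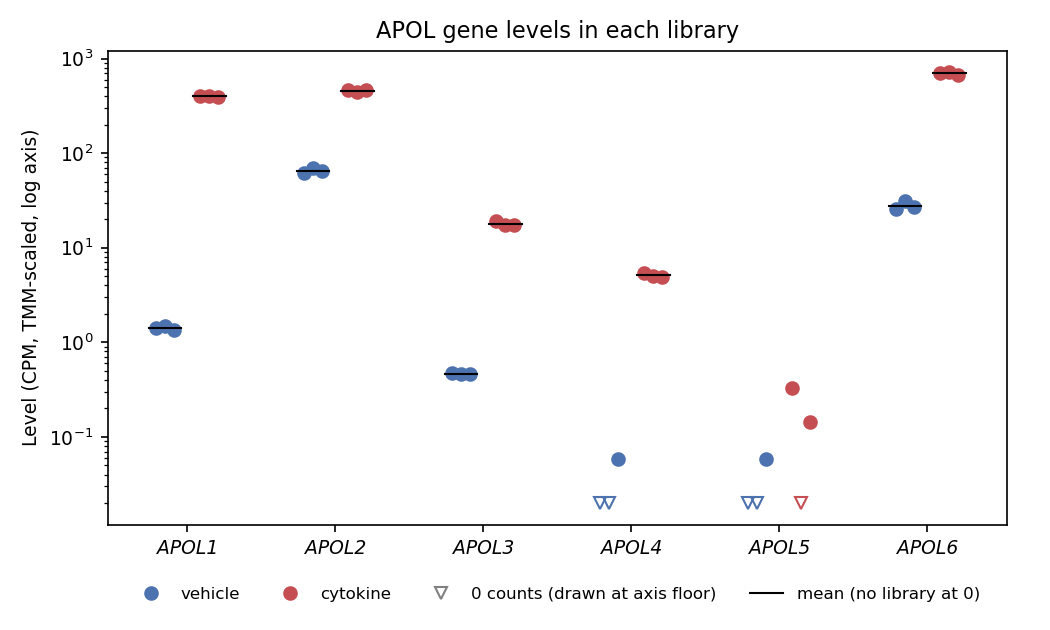
CPM of each APOL gene in each library on a log axis, with vehicle in blue, cytokine in red, black lines at group means and open triangles for libraries with 0 counts. The cytokine points of APOL1, APOL2, APOL3, APOL4 and APOL6 lie above their vehicle points, while APOL5 has a cytokine library at 0.

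APOL1, the secreted trypanolytic member, was nearly silent with vehicle. It had 9, 16 and 23 counts in vehicle replicates 1, 2 and 3, or 1.43, 1.47 and 1.35 CPM, and 6048, 5116 and 5370 counts in the cytokine replicates, or 403, 402 and 389 CPM. The groups lay far apart, with the lowest cytokine library 264 times the highest vehicle library. The log2 change was 8.14 with SE 0.0845, a fold of 282 (edgeR, adjusted p = 7.3e-34). Of all tested genes, 0.202% had a larger fitted rise. Since the vehicle level rested on 48 counts in all, the ratio of pooled counts was 284 with a 95% counting interval from 214 to 385, which covers counting error only.

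APOL2, an intracellular member, had the highest count of the family in vehicle cells. Its level was 61.0, 69.0 and 65.2 CPM with vehicle and 461, 445 and 465 CPM with cytokines. Every cytokine library stood at least 6.45 times above the highest vehicle library. APOL2 thus had both the highest starting level and the smallest fold change of the 5 tested members, going from 65.1 ± 4.0 to 457 ± 10.1 CPM. On the log2 scale APOL2 rose by 2.80, SE 0.0486 (edgeR quasi-likelihood, adjusted p = 2.4e-28).

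APOL6, the member tied to cell death when overexpressed, reached the highest CPM of the family. It was at 25.4, 30.9 and 26.9 CPM with vehicle and at 708, 716 and 676 CPM with cytokines. The lowest cytokine library was 21.9 times the highest vehicle library, and the mean went from 27.7 ± 2.82 to 700 ± 21.1 CPM. Its log2 change was 4.65 with SE 0.0570, a 25.1-fold rise (edgeR, adjusted p = 3.9e-32).

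APOL3, the member known for attacking cytosolic bacteria, rose from a trace. It had 3, 5 and 8 vehicle counts, or 0.477, 0.459 and 0.468 CPM, and 285, 221 and 240 cytokine counts, or 19.0, 17.4 and 17.4 CPM. The cytokine libraries did not overlap the vehicle libraries, and APOL3 rose by 5.23 on the log2 scale, SE 0.181 (edgeR quasi-likelihood, adjusted p = 1.2e-20). The ratio of pooled counts was 38.5, with a 95% counting interval from 23.5 to 67.6.

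APOL4, whose function is less well described, was close to absent without cytokines. A single count in vehicle replicate 3 was its whole vehicle signal, against 82, 64 and 67 counts in the cytokine libraries, or 5.46, 5.03 and 4.85 CPM. The fitted rise was 7.04 on the log2 scale, SE 0.427 (edgeR quasi-likelihood, adjusted p = 1.2e-14). That size rested on vehicle replicate 3: without it the fitted value was 8.91 (edgeR, adjusted p = 7.8e-11), since the vehicle group then held 0 counts. The ratio of pooled counts was 176 with a 95% counting interval from 31.2 to 6971, so the place of APOL4 above or below APOL1 in the order of rises was not established.

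APOL5 was not detectable as changed at this depth. It had 0, 0 and 1 counts with vehicle and 5, 0 and 2 counts with cytokines, so the groups overlapped. No library reached the count filter, so APOL5 was not tested. In the authors' deposited table, APOL5 had a log2 fold change of 2.20 with an FDR of 0.300. The other members had log2 fold changes of 8.15 (APOL1), 2.81 (APOL2), 5.24 (APOL3), 7.04 (APOL4) and 4.67 (APOL6) in the authors' deposited table.

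Levels of different members can be compared only per length, because the exons of APOL6 cover 10121 bases against 3519 for APOL1, 3484 for APOL2, 5901 for APOL3, 4377 for APOL4 and 1438 for APOL5. Per kilobase of exon, APOL2 was the highest member in vehicle libraries at 18.7 ± 1.15 CPM per kb, followed by APOL6 at 2.74 ± 0.279, APOL1 at 0.402 ± 0.0181 and APOL3 at 0.0793 ± 0.00146. With cytokines the order became APOL2 at 131 ± 2.90, APOL1 at 113 ± 2.22, APOL6 at 69.1 ± 2.08, APOL3 at 3.03 ± 0.156 and APOL4 at 1.17 ± 0.0713 CPM per kb. APOL1 thus moved ahead of APOL6, although APOL6 had more counts. The libraries of neighbours in either order did not overlap down to APOL3, while APOL4 and APOL5 shared a single vehicle count each. On counts without length APOL6 would stand first with cytokines, so this order depends on the annotated exons, and which transcripts the cells used was not measured. The gene lengths that the authors deposited were not used here.

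The make-up of the family differed between the groups, with no overlap in the shares of APOL1, APOL2, APOL3, APOL4 and APOL6. With vehicle APOL2 made up 85.4%, 84.8% and 85.5% of the summed level per kb, and with cytokines 41.2%, 40.3% and 42.4%. APOL1 went from 1.98%, 1.79% and 1.75% to 35.6%, 36.1% and 35.1%. APOL6 went from a mean of 12.5% to 21.8%, APOL3 from 0.363% to 0.955% and APOL4 from 0.0204% to 0.368%. The shares of APOL1, APOL3, APOL4 and APOL6 were higher, and that of APOL2 lower, in every cytokine library than in any vehicle library. Each of these differences had a two-sided exact permutation p of 0.1 (0.12 after adjustment over the 6 members). A p of 0.1 is the smallest that this test allows for 3 against 3, so it cannot reach 0.05 here. APOL3 and APOL4 passed the count filter through the cytokine libraries alone, and APOL4 had 1 vehicle count, so their lack of overlap is no support. The shares of a library add up to the whole family, so these differences are not separate results.

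**Figure D2:**
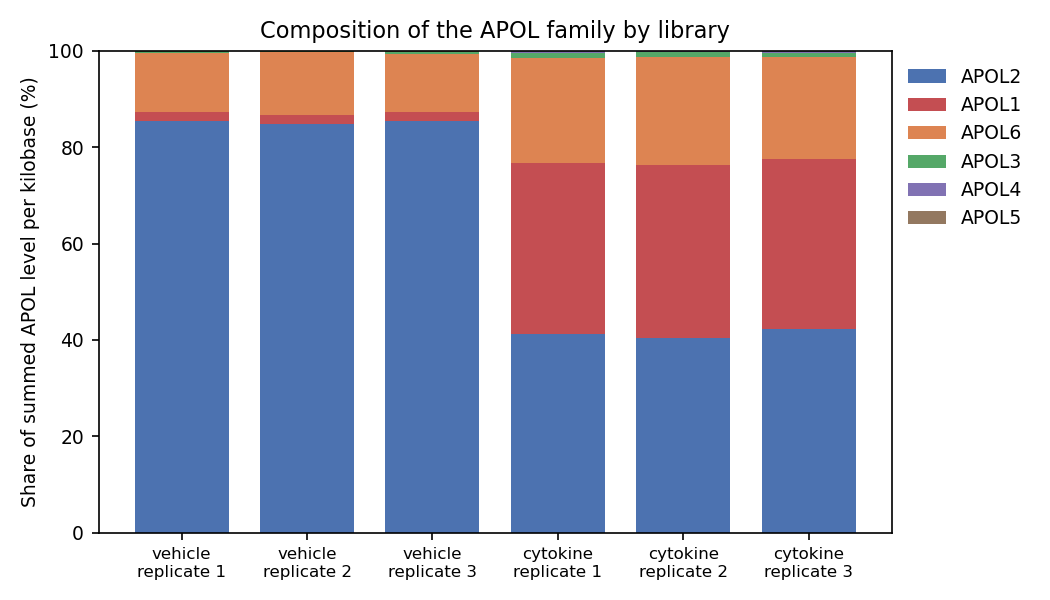
Share of each APOL gene in the summed level per kilobase of exon (percent, stacked to 100) in each of the 6 libraries. APOL2 fills about 85.2% of each vehicle bar and about 41.3% of each cytokine bar, where APOL1 takes about 35.6%.

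A ratio of counts within a library needs no scaling between libraries, and it showed the same unequal rises. With vehicle there were 42.7, 46.9 and 48.4 APOL2 counts for each APOL1 count, and with cytokines 1.14, 1.11 and 1.19. The log2 ratio of APOL1 to APOL2 was -5.52 ± 0.0953 with vehicle and -0.20 ± 0.0547 with cytokines, a difference of 5.32. The ratio of APOL6 to APOL2 turned over, from 0.413 to 0.447 APOL6 counts for each APOL2 count with vehicle to 1.46 to 1.61 with cytokines. APOL3 and APOL6 had the smallest difference in ratio of the 10 pairs: there were 53.3 to 67.2 APOL6 counts for each APOL3 count with vehicle and 37.3 to 41.2 with cytokines, a difference in log2 ratio of 0.60. The APOL3 to APOL6 difference rests on 16 vehicle counts of APOL3. The counting intervals of the pooled count ratios of APOL3 and APOL6 overlapped, so its sign is not established. All 10 pairs of the 5 tested members were compared, and in none did the ratios of both groups overlap. Each had a two-sided exact permutation p of 0.1 (0.1 after adjustment over the 10 pairs), the smallest the design allows. The 4 pairs with APOL4 had 0.5 added to each count because it had libraries at 0. Their vehicle ratios were set largely by this offset and by depth, so the lack of overlap in these 4 pairs is no support. APOL3 and APOL4 were among the tested members through their cytokine libraries alone. How many pairs of other genes would also not overlap was not counted.

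**Figure D3:**
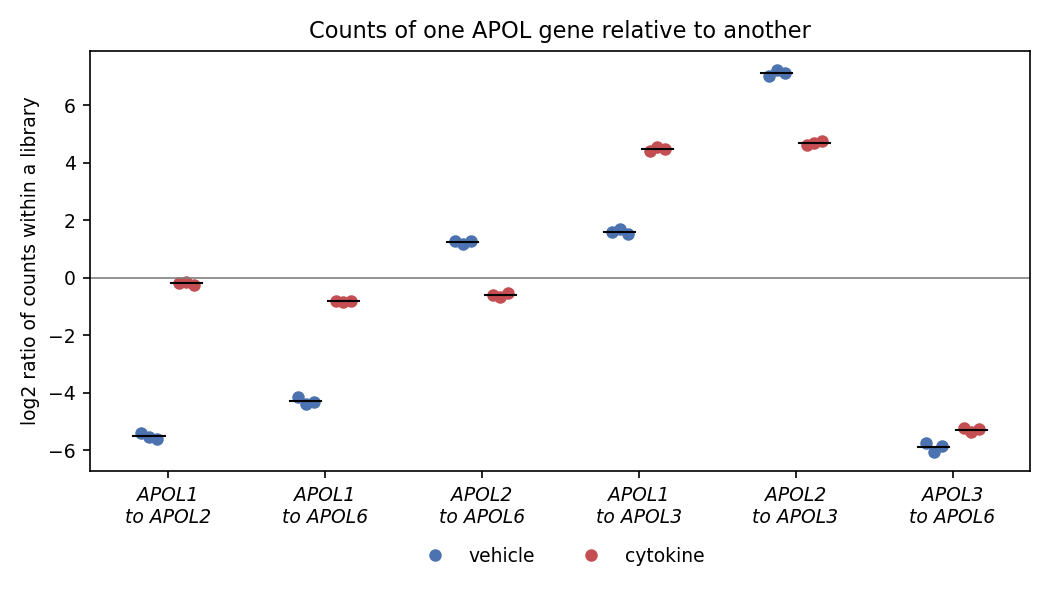
Log2 ratio of the counts of one APOL gene to another within each library, for the 6 pairs without APOL4, with vehicle in blue, cytokine in red and black lines at group means. The cytokine points of the APOL1 to APOL2 pair sit near 0 at -0.20, against -5.52 for vehicle.

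The genes with the most similar profile were sought for each member by the distance between mean-centred log2 CPM over the 6 libraries, among 14860 genes with a symbol and at least 1 CPM in the higher group. The distance is a root mean square on the log2 scale, and a prior count of 2 draws genes with few vehicle counts towards smaller changes. For APOL1 the nearest were GBP5 (distance 0.103), TAP1 (0.118) and ETV7 (0.191), and TAP1, a peptide transporter of antigen presentation, changed by 8.24 on the log2 scale (SE 0.0619), close to APOL1. For APOL2 they were TAPBP (0.0270), RND3 (0.0537) and NPFFR2 (0.0580), with log2 changes of 2.82, 2.84 and 2.75. APOL6 was nearest to PSMB10, an immunoproteasome subunit (0.0641), OAS1 (0.0762) and UBD (0.0993), and APOL3 to TYMP (0.0582), LAP3 (0.0929) and HLA-E (0.0940). APOL4 was nearest to MX1 (0.12), OAS1 (0.166) and HLA-E (0.168). GBP5 and UBD had 0 vehicle counts after rounding, so their distances to APOL1 and APOL6 were set by the prior count, as were those of APOL4. Fitted log2 changes were far larger for GBP5 (12.2) and UBD (8.52) than for APOL1 and APOL6. Those of MX1, OAS1 and HLA-E were 5.04, 4.76 and 4.97, against 7.04 for APOL4. HLA-E belongs to a family of near-identical genes among which reads can be split. With 2 groups of libraries these distances mostly compare sizes of change.

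Genes that carry the interferon gamma signal to its targets were mostly higher in the same libraries. Of 12 genes of the chain, 10 rose and the receptor genes IFNGR1 and IFNGR2 did not pass, at 49.3 and 48.7 CPM and at 63.1 and 67.0 CPM with vehicle and cytokines. With scaling by library size alone both receptor genes were called lower (edgeR, adjusted p = 0.00092 and 0.039). IRF1, a transcription factor induced by interferon gamma, went from 20.1 to 1229 CPM, a fold of 61.3 that lay between those of APOL2 and APOL1. The kinase JAK2 rose by 4.36 on the log2 scale and its relative JAK1 by 0.54. STAT2 and IRF9, which act together in type I interferon signalling, rose by 2.36 and 4.73. SOCS1 and SOCS3, feedback inhibitors of the kinases, rose by 7.17 and 6.46, and IRF8 and IRF2 by 4.88 and 1.34. SOCS1 and SOCS3 passed the count filter through the cytokine libraries alone. The median log2 change of the chain, these included, was 4.34, beside -0.019 for all tested genes, of which 28.3% were called higher and 28.8% lower. Of 9 NF-kappaB subunits and inhibitors, through which interleukin 1 signals, 8 rose and NFKBIE did not pass (log2 change -0.035), with a median of 0.98. RELB and NFKB2 rose most in that list, by 2.82-fold and 2.50-fold. Which of both cytokines changed the APOL genes cannot be told apart, since they were given together.

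The genes between and beside the APOL genes changed little next to them. Among 12 listed neighbours, 10 were tested, with a median log2 change of -0.14. RBFOX2 and MYH9 rose, HMGXB4, MCM5, FOXRED2, EIF3D and CACNG2 fell, and TOM1, RASD2 and TXN2 did not pass. Over all tested genes the shares were 28.3% called higher and 28.8% called lower. With scaling by library size alone TXN2 was called lower (log2 change -0.29, edgeR, adjusted p = 0.00013). MYH9, which encodes a nonmuscle myosin heavy chain and lies next to APOL1, went from 377 ± 19.4 to 453 ± 4.28 CPM, a 1.20-fold rise (log2 change 0.27, edgeR, adjusted p = 3.0e-06) that did not pass with scaling by library size alone (log2 change 0.064, edgeR, adjusted p = 0.158). RBFOX2, a splicing regulator between APOL5 and APOL3, rose 1.42-fold to 220 ± 7.56 CPM. The replication helicase subunit MCM5 fell by 0.54 on the log2 scale. The translation initiation subunit EIF3D fell by 0.41, FOXRED2 fell by 0.44, and CACNG2 fell by 0.58 on that scale. HMGXB4 was at adjusted p = 0.015 in edgeR and no longer passed with DESeq2, nor in edgeR without vehicle replicate 3 (adjusted p = 0.182 at a log2 change of -0.13) or cytokine replicate 2 (adjusted p = 0.0705 at -0.16). CACNG2 did not pass with DESeq2, and TOM1 passed in edgeR when vehicle replicate 1 was left out (adjusted p = 0.0188 at a log2 change of 0.16). Within 600 kb of the family, all 14 tested genes outside it had log2 changes from -1.93, for ISX, to 0.59, for RASD2, while those of the 5 tested APOL genes ran from 2.80 to 8.14. The other 39 annotated genes there had at most 10 counts in any library. ISX and the window were chosen after values were seen.

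**Figure D4:**
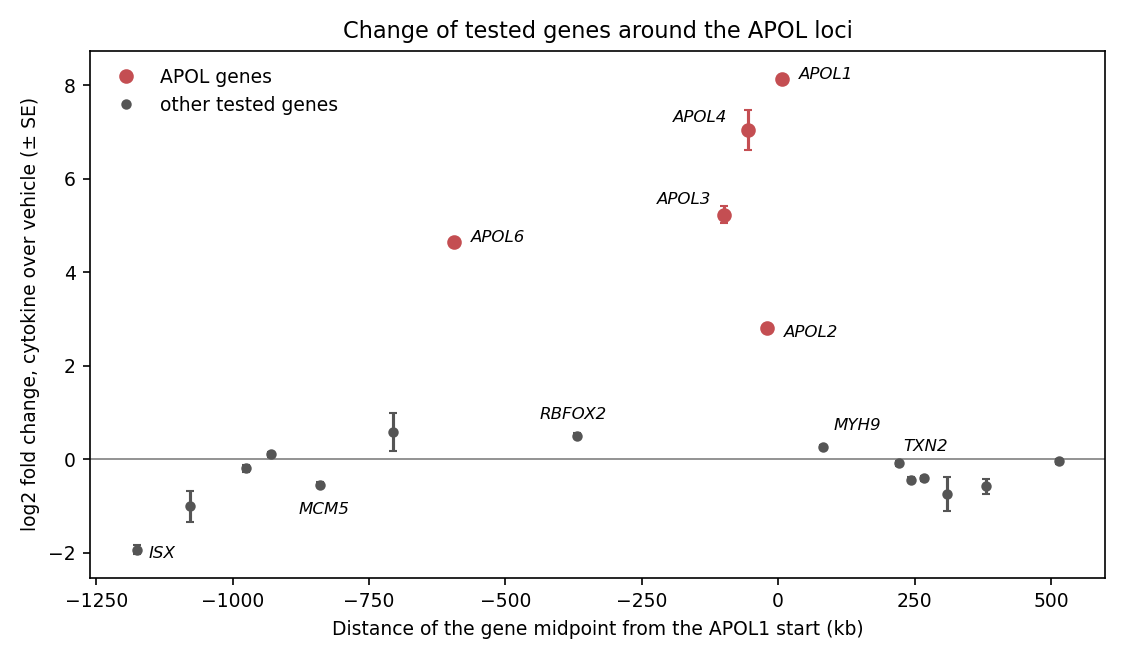
Log2 fold change of cytokine over vehicle (± SE from the edgeR fit) for each tested gene within 600 kb of the APOL genes, against the distance of its midpoint from the APOL1 start in kb, with APOL genes in red and others in grey. The red points lie between 2.80 and 8.14, and the grey points between -1.93 and 0.59.

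APOLD1 on another chromosome, which shares the apolipoprotein L domain but is not one of the 6, was at 26.0 ± 1.52 CPM with vehicle and 28.0 ± 0.230 CPM with cytokines. Its libraries did not overlap, but the log2 change of 0.095 (SE 0.0701) did not pass the test (edgeR, adjusted p = 0.254).

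Guanylate-binding proteins, CASP4 and GSDMD act in defence against cytosolic bacteria, as APOL3 does. All 8 tested genes of that list rose, but 6 of them, GBP1 to GBP6, passed the count filter through the cytokine libraries alone, so their place in the test already required a high cytokine level. GBP1 had 0 vehicle counts and 10383, 8691 and 9034 cytokine counts, and GBP5 had 0 vehicle counts and reached 45.6 CPM, while GBP7 had at most 5 counts and was not tested. Of the 19 lipoprotein and trypanolytic partner genes, 14 were tested, 2 rose, 2 fell and 10 did not pass, with a median log2 change of -0.058. Beside both lists, 28.3% of all tested genes were called higher and 28.8% lower. SCARB1, a receptor for high-density lipoprotein, fell by 0.70 and LRP1 fell by 0.41 on the log2 scale. CLU rose by 0.12 and turned to -0.082 with scaling by library size alone (edgeR, adjusted p = 0.042). APOA1, the main protein of high-density lipoprotein, was at 4.14 and 4.06 CPM. HPR, which joins APOL1 in the trypanolytic particle, had 1 count over the 6 libraries, and HP, its close relative, had 0 in each. Reads can be split between these near-identical copies.

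Of 7 BCL2 family and related genes, 5 rose, BCL2 fell and BAX did not pass, with a median log2 change of 0.32. The shares over all tested genes were 28.3% called higher and 28.8% called lower. BAK1, a pore-forming death effector, rose 2.54-fold to 45.9 CPM, and the survival gene MCL1 rose 2.36-fold to 358 CPM. BCL2 went from 6.29 ± 0.397 to 4.51 ± 0.465 CPM (edgeR, adjusted p = 0.0048), a call lost with DESeq2 (adjusted p = 0.118, or 0.0586 when DESeq2 was given the filtered genes). BAX was at 74.7 and 73.6 CPM. Next to APOL6 at 25.1-fold, the changes of the tested genes in this list were small. NFKBIE, BAX, HP, HPR, APOA1, GBP7, INS, SST and the other-cell markers are named outside the gene rule, after their values were seen.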

How the data were processed

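Libraries of total RNA were made with a directional NEBNext Ultra II kit, per the labels' protocols, and grouped by sample title, with the columns headed NT taken as vehicle. STAR 2.7.5a, HTSeq 0.12.4, cutadapt 2.10 and GRCh38 were named without roles, per the submitters' processing notes. The authors deposited an estimated count per gene and library, not normalised, with fractions of a count in 14 of 36 APOL values, and rounding moved none by more than 0.5. The authors also deposited for each gene a log2 fold change, an average log2 CPM, the F statistic (a score), and p-value and FDR columns, per the file headers. A gene length was deposited too, and the lengths used here were taken from GENCODE instead. The origin of the fractions, annotation release and strand setting are not stated in the sources used here.

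Rounded counts were filtered with filterByExpr (0.702 CPM in 3 libraries), scaled with TMM and tested on group alone with edgeR 4.0.16 (R 4.3.3), robust quasi-likelihood, Benjamini-Hochberg adjusted over 17847 genes. The SE is the log2 change divided by the square root of F. Exon lengths, coordinates and transcripts came from GENCODE 29. Scripts were tested on simulated data. Chi-squares between replicates were 1.38 to 2.47 per gene, so no libraries were counted as 1. This does not show that they were separate cultures. The fitted spread between libraries beyond counting (common biological coefficient of variation) was 3.47%.

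Members and gene lists were chosen with earlier results of these data known. The rule named all APOL genes, the interferon gamma chain, the listed neighbours and APOLD1, up to 2 higher and 2 lower genes of each other list with at least 1 CPM, and the 3 nearest profiles of each tested member. Cell type markers were listed for a check of the line. Alternatives were other scalings and filters, DESeq2 1.42.0, a replicate block, each library left out, adjusted p of 0.01, glmTreat against 1.5-fold, other lengths and offsets. Rounding down and DESeq2 on the filtered genes were added after seeing the data. Promoter and protein sequences of the members were not analysed here. Some genes of the lists are not reported here by name.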

Additional observations from a re-analysis of the deposited data

How the results depend on the processing

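The log2 changes of the 5 tested APOL genes stayed positive and past the threshold in all 16 alternatives, with the highest adjusted p at 7.0e-09 for APOL4 with DESeq2. With scaling by library size alone they were 7.94 (APOL1), 2.60 (APOL2), 5.03 (APOL3), 6.86 (APOL4) and 4.45 (APOL6), since that scaling shifted the median of all tested genes from -0.019 to -0.22. The same numbered replicates did not deviate together more than others (correlations 0.069, 0.045 and -0.11 over 12002 genes). Differently numbered replicates gave correlations from -0.12 to 0.10. With 3 libraries per group this check gave no sign of pairing by number, and it cannot show that the samples were unpaired. The replicate block gave APOL log2 changes of 8.13, 2.81, 5.21, 7.01 and 4.64 in the same order, all still called. It called 3 lipoprotein partners lower against 2, left the other list counts as they were, and called 5010 of all genes higher and 5101 lower. The 10 differences in log2 ratio between members kept their sign in every alternative. For APOL1 to APOL4 that sign rests on the offset added to the counts and is not established. Without vehicle replicate 3 the edgeR log2 change was 8.91 for APOL4 and 8.09 for APOL1, the opposite order. The counting interval of the ratio of pooled counts was 23.5 to 67.6 for APOL3. It overlapped those of APOL6 (23.5 to 26.8) and APOL4 (31.2 to 6971). The sign is thus not established for APOL3 to APOL6 or for APOL3 to APOL4 either, and the latter pair also uses the offset.

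Scaling by library size alone called 2980 of all genes higher and 8779 lower, against 5057 and 5142, with 2 lower in the interferon gamma chain, 1 lower in the NF-kappaB list, 1 higher and 8 lower among lipoprotein partners, 2 lower in the BCL2 list and 1 neighbour higher. CLU reversed to -0.082. Testing against a 1.5-fold change with glmTreat called 1395 genes higher and 950 lower, with 0 higher and 1 lower lipoprotein partners, 2 higher and 0 lower in the BCL2 list, and 0 higher and 0 lower neighbours. DESeq2 called 3356 genes lower with its own filter, and with either filter 3 neighbours and 0 genes of the BCL2 list lower.

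With the longest transcript as length, levels per kb with vehicle and cytokines were 0.472 and 133 for APOL1, 24.2 and 170 for APOL2, 0.129 and 4.94 for APOL3, and 1.49 with cytokines for APOL4. With scaling by library size alone they were 0.430 and 105 for APOL1, 19.97 and 122 for APOL2, 0.0848 and 2.82 for APOL3, and with cytokines 1.09 for APOL4 and 64.3 for APOL6. Family shares by longest transcript were 1.71% and 35.0% for APOL1, 87.8% and 45.0% for APOL2, 0.469% and 1.30% for APOL3, 9.92% and 18.3% for APOL6, and 0.395% with cytokines for APOL4. By counts with no length they were 1.498% and 25.2% for APOL1, 68.7% and 28.97% for APOL2, 0.496% and 1.13% for APOL3, 29.2% and 44.3% for APOL6, and 0.324% with cytokines for APOL4. Depth limits APOL5, and the size of the APOL3 and APOL4 rises, which rest on 16 and 1 vehicle counts.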
